A study of Mus musculus with 15 samples.

Results

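The immunity-related GTPases (IRGs) form a family of interferon-inducible proteins, and 7 of them are described here: Irgm1, Irgm2, Igtp, Iigp1, Ifi47, Tgtp1 and Tgtp2. They were taken by symbol from the deposited table of normalized counts, through the gene identifier and the GENCODE annotation, and make up 7 of its 50686 genes. All 7 had a mean normalized count of at least 10 over the 15 libraries and so were among the 13499 genes tested. Tgtp1 reached that mean through the groups with a high-fat parent, because its control mean was 5.17. The family was chosen by measured values: its levels in the sedentary offspring of a high-fat mother or father against controls, and in the 2 maternal groups against each other. Those 3 comparisons, and the 2 that are sums or differences of them (maternal exercised against controls and maternal against paternal sedentary), are therefore given as a description, and nothing is read from a test in them.

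RNA of the quadriceps, a thigh muscle, was sequenced from C57BL/6 offspring that were 10 months old. There were 5 groups of 3 libraries each. In the control group (NCS) both parents ate chow and the dam was sedentary. In the maternal sedentary group (MHS) the mother had eaten a 60% high-fat diet for 6 weeks and was kept with a locked wheel in pregnancy. In the maternal exercised group (MHE) such a mother had a running wheel in pregnancy. In the paternal sedentary (PHS) and paternal exercised (PHE) groups the father had eaten the same high-fat diet for 6 weeks. Their dams were lean and had a locked or a free wheel, respectively. The offspring of all 5 groups themselves ate chow and were sedentary, so by design the groups differed in the diet and exercise of the parents. Dams on chow numbered 4 and dams on the high-fat diet 8, and there were 4 sires on each diet. The labels do not say which offspring were littermates, so a p-value measures only the spread between these samples. One control group served both arms, so every comparison with controls rests on the same 3 libraries.

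IRG proteins are made by many cell types after exposure to interferon-gamma, which acts through its receptor and the kinases JAK1 and JAK2. The effectors, or GKS proteins (Iigp1, also called Irga6, Ifi47, also called Irgd, and the near-identical Tgtp1 and Tgtp2, or Irgb6), load onto the vacuole around an intracellular parasite such as Toxoplasma and disrupt its membrane. The regulators, or GMS proteins (Irgm1, Irgm2 and Igtp, also called Irgm3), sit on the cell's own membranes and hold the effectors inactive there.

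Sequence just upstream of the RefSeq start shows letters that several of these genes have in common. RefSeq windows of GRCm38.p6, from 250 bases before to 50 after a gene's start, were taken for the 6 members other than Iigp1. They were searched on both strands for the letters of a gamma-activated site (GAS, TTCNNNGAA), known from interferon-gamma-inducible promoters, and of an interferon-stimulated response element core (ISRE core, GAAA, then any 2 bases, then GAAA), which interferon regulatory factors bind. The search allowed overlaps, and the capitals below mark the matches.
Tgtp1 (chr11:48992294-48992354, minus strand): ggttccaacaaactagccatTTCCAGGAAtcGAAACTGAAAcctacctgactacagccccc
Tgtp2 (chr11:49064253-49064313, minus strand): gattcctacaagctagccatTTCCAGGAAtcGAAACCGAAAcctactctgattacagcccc
Igtp (chr11:58199491-58199551, plus strand): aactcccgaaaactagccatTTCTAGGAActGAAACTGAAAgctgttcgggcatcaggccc
Irgm2 (chr11:58214882-58214942, plus strand): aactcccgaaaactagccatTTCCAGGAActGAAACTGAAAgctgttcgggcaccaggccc
Irgm1 (chr11:48871428-48871457, minus strand): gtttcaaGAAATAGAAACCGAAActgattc

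In Tgtp1, Tgtp2, Igtp and Irgm2 a GAS match was followed after 2 bases by an ISRE core match, in the same order and on the gene's own strand. The stretches of Igtp and Irgm2 were identical at 59 of 61 bases, those of Tgtp1 and Tgtp2 at 47 of 61, and all 4 were identical at 35 of 61. The Irgm1 window held 2 overlapping ISRE cores and no match to the GAS letters, and the Ifi47 window held no match to either. Among 32851 windows of this length in the RefSeq table, 8.3% held the GAS letters, 3.44% the ISRE core and 0.454% both. Both lay within 5 bases of each other in 33 windows (0.1%), among them those of the 4 members. By the GENCODE annotation, which places some starts elsewhere than RefSeq, the Irgm1 stretch lies in an exon of Irgm1, and those of Tgtp1 and Irgm2 lie within their own genes outside exons. Those of Tgtp2 and Igtp lie outside their own genes. The 4 genes with both motifs are related copies, so they are not independent cases, and a match of letters is a description and not a bound site.

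**Figure D1:**
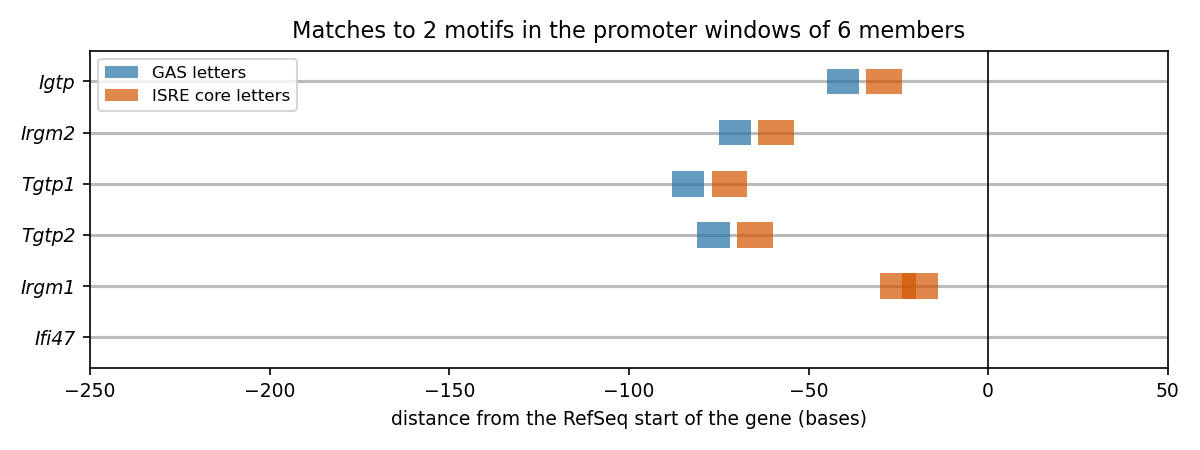
Positions of matches to the GAS letters (blue) and the ISRE core (orange) in the promoter windows of 6 members, with the distance from the RefSeq start in bases on the x axis. In Igtp, Irgm2, Tgtp1 and Tgtp2 the GAS match lies just upstream of the ISRE core, Irgm1 has 2 overlapping ISRE cores, and Ifi47 has no match.

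The members lie in 3 places of the mouse genome (GRCm38). Irgm1 (chr11:48861968-48871683, minus strand), Tgtp1 (chr11:48985327-48994172, minus), Tgtp2 (chr11:49057194-49064206, minus) and Ifi47 (chr11:49076587-49096974, plus) form a cluster on chromosome 11. Igtp (chr11:58199556-58207591, plus) and Irgm2 (chr11:58199618-58222782, plus) overlap further along the same chromosome. Iigp1 (chr18:60376027-60392634, plus) lies on chromosome 18. All 7 are annotated as protein-coding.

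Levels below are normalized counts, that is, reads of a gene divided by a size factor for each library. The libraries held 18457663 to 26981745 reads. Per kilobase of exon, which allows genes to be compared, the mean normalized count over all libraries was 114 for Igtp, 91.9 for Irgm2 and 51.0 for Irgm1. It was 21.8 for Iigp1, 9.03 for Tgtp2, 8.63 for Ifi47 and 4.76 for Tgtp1. The 3 regulators were therefore the most abundant members per length, and the effectors other than Iigp1 were scarce, with 0 to 37 reads of Tgtp1, 6 to 46 of Ifi47 and 13 to 77 of Tgtp2 in a library. Tgtp1 and Tgtp2 are uncertain as separate genes, because 73.1% of the 100-base windows of Tgtp1 transcripts and 76.8% of those of Tgtp2 also occur in another gene, mostly in each other. Whether reads that match both copies were counted was not examined, so the levels of Tgtp1 and Tgtp2 may be too low. Igtp and Irgm2 share 8.01% and 4.39% of their exon bases, and the exons of Ifi47 and Tgtp1 overlap other genes by 8.77% and 6.96%.

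Some libraries stood apart in ways that touch these results. The summed level of 18 hepatocyte genes was 168 to 3916 CPM (reads out of 1000000 of the library) in 4 libraries (control 2, maternal sedentary 2 and 3, paternal sedentary 1) and 9.93 to 33.9 in the other 11. Control 2 and maternal sedentary 3 also had the fewest genes with a read, 17699 and 17581, against 19062 to 20771 elsewhere. The 12 skeletal muscle genes of the marker list were all above the filter. In bulk tissue, fewer cells of a type and less RNA per cell cannot be told apart.

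Among the regulators, Irgm1 differed least between the groups. Irgm1 is thought to act in autophagy and on lysosomal membranes besides restraining the effectors. Its normalized count was 263, 148 and 301 in the control libraries, 361, 333 and 229 in the maternal sedentary libraries, and 288, 242 and 332 in the maternal exercised libraries. It was 306, 318 and 299 in the paternal sedentary and 362, 312 and 349.9 in the paternal exercised libraries. Control 2 was the lowest library, and the paternal exercised libraries were the group in which all 3 lay above every control library. Group means ran from 237 ± 79.4 (SD, n = 3) in controls to 341 ± 26.0 in the paternal exercised group.

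Irgm2 followed a similar order, with the highest mean again in the paternal exercised group. Its normalized count was 297, 166 and 303 in the control, 429, 381 and 260.4 in the maternal sedentary and 313, 250.2 and 299 in the maternal exercised libraries. In the paternal sedentary libraries it was 337, 376 and 319.9, and in the paternal exercised libraries 607, 337 and 414. Both paternal groups lay above all 3 controls without overlap, and paternal exercised 1 stood well above every other library. The group means were 255 ± 77.4 in controls, 357 ± 87.0 and 287 ± 33.1 in the maternal sedentary and exercised groups, and 344 ± 28.6 and 453 ± 139 in the paternal ones (SD, n = 3).

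Igtp, the third regulator, did not share the low control level. Its normalized count was 207, 217 and 239 in the control libraries, 345, 249.6 and 255 in the maternal sedentary and 134, 199 and 167 in the maternal exercised libraries. In the paternal groups it was 191, 221 and 271 (sedentary) and 404, 135 and 212 (exercised). The maternal sedentary libraries were all above, and the maternal exercised libraries all below, the control libraries, while the paternal exercised libraries spanned nearly the whole range of the gene. The paternal exercised mean of 251 ± 138 (SD, n = 3) rested on paternal exercised 1, which was the highest library for all 3 regulators.

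Among the effectors, Iigp1 had the widest difference from controls of the members with over 100 reads in a library. Iigp1 oligomerises on the vacuole membrane. Its normalized count was 43.7, 39.4 and 80.1 in the control libraries and 277, 247 and 106 in the maternal sedentary libraries. It was 77.4, 75.3 and 139 in the maternal exercised, 168, 126 and 103 in the paternal sedentary and 201, 95.4 and 127 in the paternal exercised libraries. Of the 12 libraries with a high-fat parent, 10 were above every control library, the exceptions being maternal exercised 1 and 2. The group means in descending order were 209.9 ± 91.2 (MHS), 141 ± 54.1 (PHE), 132 ± 32.5 (PHS), 97.1 ± 36.0 (MHE) and 54.4 ± 22.4 (NCS; SD, n = 3 each). Each group overlapped its neighbour in that order.

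The make-up of the family shifted with it. Iigp1 made up 6.71 ± 1.51% of the summed normalized counts of the 7 members in controls (SD, n = 3). It made up 16.1 ± 3.97% in the maternal sedentary, 10.6 ± 2.87% in the maternal exercised, 12.2 ± 2.84% in the paternal sedentary and 11.2 ± 1.06% in the paternal exercised group. The lowest share in a library with a high-fat parent, 8.93% in maternal exercised 1, was above the highest control share of 8.23%. The shares rest on values that served to choose the family, so they are a description and nothing is read from this separation.

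Ifi47 was scarce, with 37 reads over the 3 control libraries (exact 95% Poisson interval 26.1 to 51.0, for counting error only) and 98 over the 3 maternal sedentary ones (79.6 to 119). Its normalized count was 9.14, 6.06 and 19.6 in the control, 42.9, 26.4 and 23.8 in the maternal sedentary and 13.2, 32.8 and 22.5 in the maternal exercised libraries. In the paternal groups it was 27.6, 28.3 and 19.7 (sedentary) and 12.5, 15.3 and 20.4 (exercised). Both sedentary groups with a high-fat parent lay above all controls, by a narrow margin in the paternal one, and both exercised groups overlapped the controls.

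Tgtp1 had 17 reads in the controls (exact 95% Poisson interval 9.9 to 27.2) and 82 in the maternal sedentary libraries (65.2 to 102). Its normalized count was 3.05, 0 and 12.5 in the control, 34.5, 30.8 and 10.8 in the maternal sedentary and 15.3, 17.0 and 12.4 in the maternal exercised libraries. It was 31.2, 12.1 and 12.8 in the paternal sedentary and 12.5, 3.53 and 20.4 in the paternal exercised libraries. Every group overlapped the controls, because control 3 was as high as several other libraries.

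Tgtp2, its near copy, had a normalized count of 15.2, 13.1 and 19.6 in the control and 71.7, 30.8 and 28.1 in the maternal sedentary libraries. It was 24.4, 20.6 and 23.7 in the maternal exercised, 30.3, 29.9 and 19.7 in the paternal sedentary and 19.3, 17.7 and 34.0 in the paternal exercised libraries. Maternal sedentary 1 was far above the rest, and 10 of 12 libraries with a high-fat parent exceeded every control. Among these, paternal sedentary 3 did so by a narrow margin (19.7 against 19.6 in control 3). Summing both copies avoids the split between them, but does not restore reads that match both if these were left uncounted. The summed normalized count was 21.2 ± 9.78 in controls. It was 68.9 ± 34.2, 37.8 ± 1.83, 45.3 ± 14.8 and 35.8 ± 16.9 in the MHS, MHE, PHS and PHE groups (SD, n = 3 each).

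**Figure D2:**
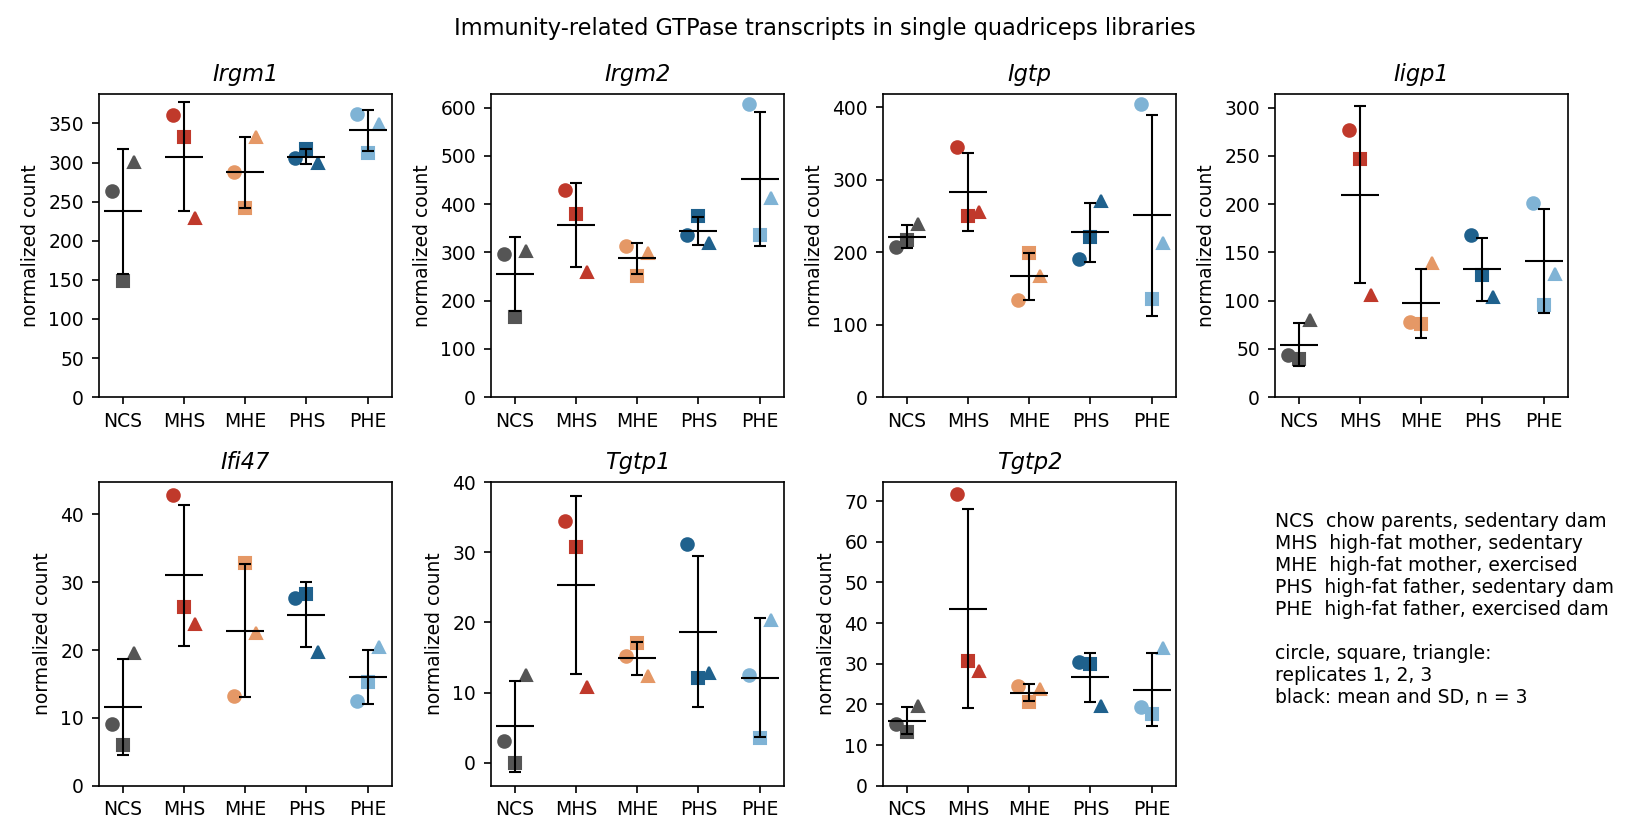
Normalized counts of the 7 members in each of the 15 libraries (coloured symbols, 3 per group), with the group mean and SD in black and a separate y axis for each gene. Controls are low for Iigp1, Ifi47, Tgtp1 and Tgtp2 and the maternal sedentary group is high, while Igtp is lowest in the maternal exercised group and paternal exercised 1 is the highest library for Irgm1, Irgm2 and Igtp.

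In the order of group means, most neighbouring groups overlapped. The exceptions were Igtp and Tgtp2, where the maternal exercised and control groups stood apart, and Irgm2, where the paternal sedentary libraries (319.9 to 376) were above the maternal exercised ones (250.2 to 313).

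The comparison of the maternal sedentary group with controls asks what a high-fat diet of the mother leaves in the muscle of adult offspring. All 7 members had a higher mean, against 53% of all genes tested. The differences, on the scale of log2(normalized count + 1), were largest for the effectors. For scarce genes this scale need not match a ratio of means: for Tgtp1, with a control at 0, it gave a fold of 6.25 and the means a ratio of 4.90. The log2 differences were 1.88 ± 0.39 for Iigp1, 1.44 ± 0.43 for Ifi47, 2.64 ± 0.81 for Tgtp1 and 1.28 ± 0.37 for Tgtp2 (± SE of the fit). For the regulators they were 0.41 ± 0.23 (Irgm1), 0.50 ± 0.25 (Irgm2) and 0.34 ± 0.29 (Igtp), so that the median was 0.41 for the regulators and 1.66 for the effectors. Iigp1, Igtp, Ifi47 and Tgtp2 were higher without overlap, against 4.44% of all genes tested, and the median of all genes was 0.01. Since this comparison drew attention to the family, nothing is read from that count.

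The differences were also computed without the libraries that stood apart. Without control 2, Irgm1 differed by 0.10, Irgm2 by 0.22 and Tgtp1 by 1.68. Without the 4 libraries richest in hepatocyte transcripts, which leaves maternal sedentary 1 against controls 1 and 3, the difference was 2.20 for Iigp1 and 1.60 at the median of the members, against 1.28 with all libraries. Without the 2 libraries with fewest genes it was 2.12 for Iigp1 and 1.26 at the median. Without maternal sedentary 1, the highest library for all 4 effectors, it was 1.63 for Iigp1, 0.19 for Igtp and 0.86 at the median. The part of hepatocyte transcripts and of the number of detected genes in these values was not tested.

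The maternal exercised group set against the maternal sedentary group asks what exercise of the high-fat mother changed. All 7 members had a lower mean in the exercised group, against 49.6% of all genes. The log2 difference was -1.05 ± 0.39 for Iigp1, -0.46 ± 0.43 for Ifi47, -0.59 ± 0.81 for Tgtp1 and -0.77 ± 0.37 for Tgtp2. It was -0.76 ± 0.29 for Igtp, -0.29 ± 0.25 for Irgm2 and -0.08 ± 0.23 for Irgm1, the last of which turned to 0.04 without maternal sedentary 1. Igtp and Tgtp2 were lower without overlap, against 8.61% of all genes, and this comparison too was among those that chose the family. The median of the members was -0.59 with all libraries, -0.30 without maternal sedentary 1 and -1.06 without the 4 libraries richest in hepatocyte transcripts.

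The first number of the sample title, a code of unstated meaning, was shared by all 3 maternal sedentary libraries and maternal exercised 3. Within that number, maternal exercised 3 lay below all 3 maternal sedentary libraries for Igtp (167 against 249.6 to 345), Ifi47 (22.5 against 23.8 to 42.9) and Tgtp2 (23.7 against 28.1 to 71.7). For Iigp1 (139 against 106 to 277), Irgm1, Irgm2 and Tgtp1 it lay within their range. With this number as a covariate the Iigp1 difference between the maternal groups was -0.48. The number and the group cannot be told apart for either maternal group against controls.

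Against controls, the maternal exercised group had higher means of the effectors and a lower mean of Igtp. The log2 difference was 0.84 ± 0.39 for Iigp1, 0.98 ± 0.43 for Ifi47, 2.06 ± 0.81 for Tgtp1 and 0.51 ± 0.37 for Tgtp2, but -0.42 ± 0.29 for Igtp. Tgtp2 was higher without overlap, against 5.54% of all genes, and Igtp lower without overlap, against 4.72%. Irgm1 (0.32 ± 0.23) and Irgm2 (0.22 ± 0.25) rested on control 2: without it they were 0.02 and -0.07, and Tgtp1 was 1.10.

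The paternal sedentary group was compared with controls to ask the same of a high-fat diet of the father. Its effectors also had higher means, with log2 differences of 1.31 ± 0.39 for Iigp1, 1.19 ± 0.43 for Ifi47, 2.25 ± 0.81 for Tgtp1 and 0.69 ± 0.37 for Tgtp2. Irgm1 and Irgm2 differed by 0.43 ± 0.23 and 0.48 ± 0.25, and Igtp by 0.03 ± 0.29. Iigp1, Irgm2, Ifi47 and Tgtp2 were higher without overlap, against 2.64% of all genes, in a comparison that also served to choose the family. The margin was narrow for Ifi47 and Tgtp2, each at 19.7 in paternal sedentary 3 against 19.6 in control 3. Without control 2, Irgm1 differed by 0.13, Irgm2 by 0.20 and Tgtp1 by 1.29. With the title number as a covariate Igtp differed by 1.05, and the median of the members was 1.24. Paternal sedentary and control libraries share no title number, so these values run through the paternal exercised libraries. Without the 4 libraries richest in hepatocyte transcripts the difference was 0.94 for Iigp1, 0.87 for Tgtp1 and 0.47 at the median of the members, against 0.69 with all libraries.

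The paternal exercised group against the paternal sedentary one asks what exercise of a lean dam changed, and here the members had values on both sides of 0. The log2 difference was 0.05 ± 0.39 for Iigp1, 0.15 ± 0.23 for Irgm1, 0.35 ± 0.25 for Irgm2 and 0.01 ± 0.29 for Igtp. It was -0.63 ± 0.43 for Ifi47, -0.72 ± 0.81 for Tgtp1 and -0.20 ± 0.37 for Tgtp2. All members overlapped, against 5.11% of all genes higher and 5.5% lower without overlap, and none passed (limma, adjusted p of at least 0.991). With the title number as a covariate, which sets paternal exercised 2 alone against paternal sedentary 1 and 2, 6 of 7 members were lower. Iigp1 then differed by -0.60, Igtp by -0.59 and Irgm2 by -0.08, and the median was -0.60 against 0.01 without the covariate.

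Against controls, the paternal exercised group had the highest group means of the regulators Irgm1 and Irgm2. The log2 difference was 1.36 ± 0.39 for Iigp1, 0.83 ± 0.25 for Irgm2 and 0.58 ± 0.23 for Irgm1, and these 3 were higher without overlap, against 11.7% of all genes. Their adjusted p was 0.284, 0.284 and 0.317 (limma), so none passed. Ifi47 (0.56 ± 0.43), Tgtp1 (1.53 ± 0.81), Tgtp2 (0.50 ± 0.37) and Igtp (0.04 ± 0.29) overlapped the controls. Without control 2 the Iigp1, Irgm2 and Irgm1 differences were 1.17, 0.55 and 0.28, and without paternal exercised 1 the Igtp difference was -0.38.

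**Figure D3:**
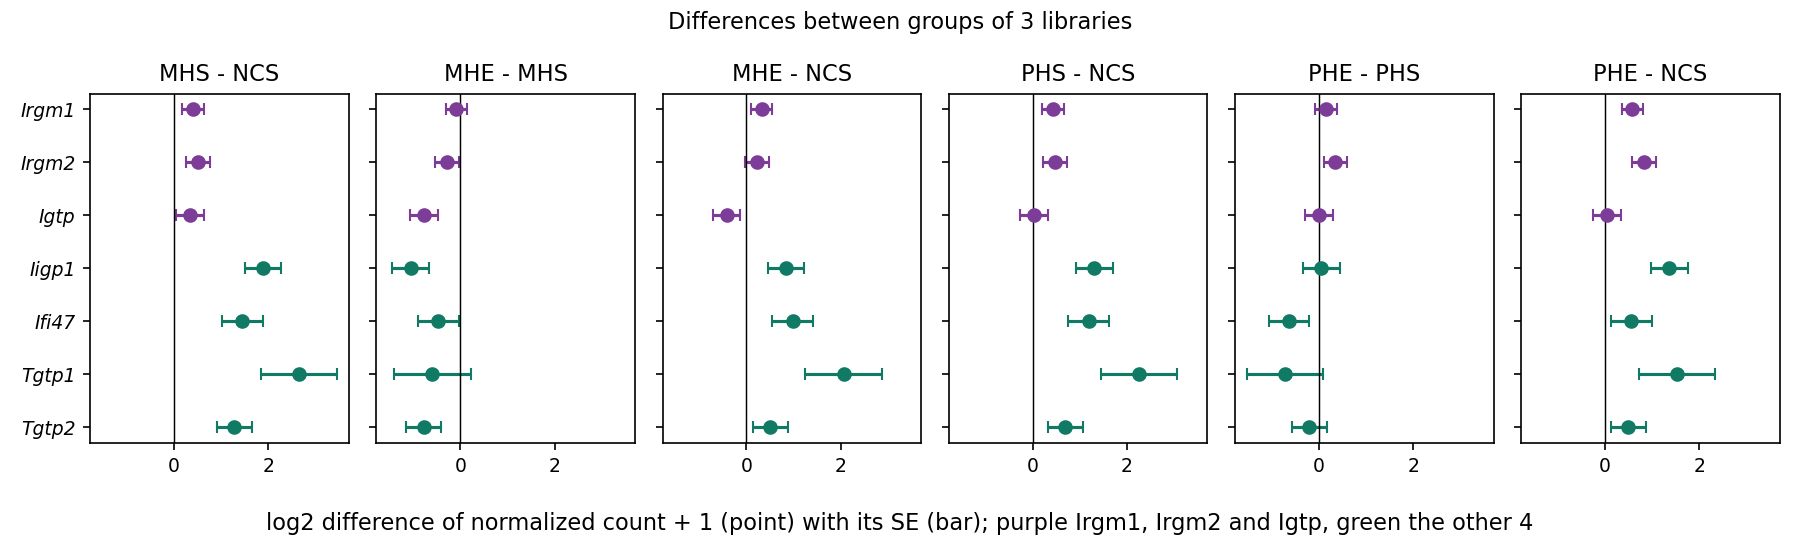
Log2 difference of normalized count + 1 (point) and its SE (bar) for each member in 6 comparisons, with the regulators Irgm1, Irgm2 and Igtp in purple and the 4 effectors in green. The effectors lie farther right than the regulators in both sedentary groups against controls, every point is left of 0 for the maternal exercised against the sedentary group, and the points scatter around 0 for the paternal exercised against the sedentary group.

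The maternal and paternal sedentary groups differed by 0.57 ± 0.39 for Iigp1 and 0.58 ± 0.37 for Tgtp2, with smaller values for the other members. Without the 4 libraries richest in hepatocyte transcripts, which leaves maternal sedentary 1 against paternal sedentary 2 and 3, the differences were 1.27 and 1.52, and the median of the members was 0.83 against 0.31 with all libraries. The exercise effect differed between the arms by -1.10 ± 0.55 for Iigp1, -0.77 ± 0.41 for Igtp and -0.64 ± 0.36 for Irgm2 (maternal minus paternal), and no member passed that test of the difference (limma, adjusted p 0.999 for each). The median of the members in that test was -0.57 with all libraries and -0.15 without maternal sedentary 1. With the title number as a covariate it was 0.12, Iigp1 differed by 0.12, and 5 of 7 members were above 0.

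In the paternal exercised group against the paternal sedentary group and against controls, and in the difference between the exercise effects, limma called 0 of the 7 members and 0% of all genes. An unadjusted p under 0.05 was reached by 0, 3 and 0 members, against 3.76%, 13.7% and 1.8% of all genes. These comparisons share their control or sedentary libraries with those that chose the family, and the last contains one of them. On the recovered reads edgeR, limma voom and DESeq2 called 0 members in these 3 comparisons, and DESeq2 called 0.00741%, 0.496% and 0% of all genes. In the 5 comparisons given as a description limma, edgeR and limma voom counted 0 members and 0% of all genes. DESeq2 counted 1 there, Iigp1 in the maternal sedentary group against controls (0.133% of all genes), and 0.444% of all genes between the maternal groups. Nothing is read from these counts, because the same values chose the family.

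Single libraries differed in the level of the whole family. The family level, the mean of the 7 log2 values each centred on its own mean, was lowest in control 2 (-1.34) and highest in maternal sedentary 1 (0.98). It ran from -1.34 to -0.08 in controls, from -0.01 to 0.98 in the maternal sedentary and from -0.20 to 0.04 in the maternal exercised libraries. In the paternal groups it ran from 0.02 to 0.39 (sedentary) and from -0.42 to 0.31 (exercised). Both sedentary groups with a high-fat parent were above all controls, and both exercised groups overlapped them. The margin was narrow, with -0.01 in the lowest maternal sedentary library against -0.08 in the highest control and a pooled SD within groups of 0.42. The family level rests on values that served to choose the family, so nothing is read from this separation.

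The members were correlated with each other over the 15 libraries in all 21 pairs, with Pearson r between 0.18 and 0.90 and a median of 0.62. With group means removed, r lay between 0.12 and 0.87 with a median of 0.51. These are descriptions over libraries that share a size factor per library. Irgm1 and Irgm2 were the closest pair (0.90) and Irgm1 and Igtp the least related (0.18), although Igtp and Irgm2 share their promoter letters and overlap in the genome (0.44). Iigp1, alone on its chromosome, had r of 0.79 with Tgtp1 and 0.76 with Irgm1, and the neighbours Tgtp1 and Irgm1 had r of 0.74 with each other.

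The genes outside the family that followed it most closely were Gbp2, Cd274, Gbp3, AW112010 and Gbp5. Their Pearson r with the family level over the 15 libraries was 0.94, 0.89, 0.88, 0.88 and 0.88, and with group means removed 0.89, 0.72, 0.85, 0.85 and 0.92. Gbp2, Gbp3 and Gbp5 encode guanylate-binding proteins, another family of interferon-inducible GTPases, and Cd274 encodes PD-L1, a ligand of the inhibitory receptor PD-1 on T cells. The correlation of Gbp2 stayed near its value once group means were removed.

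**Figure D4:**
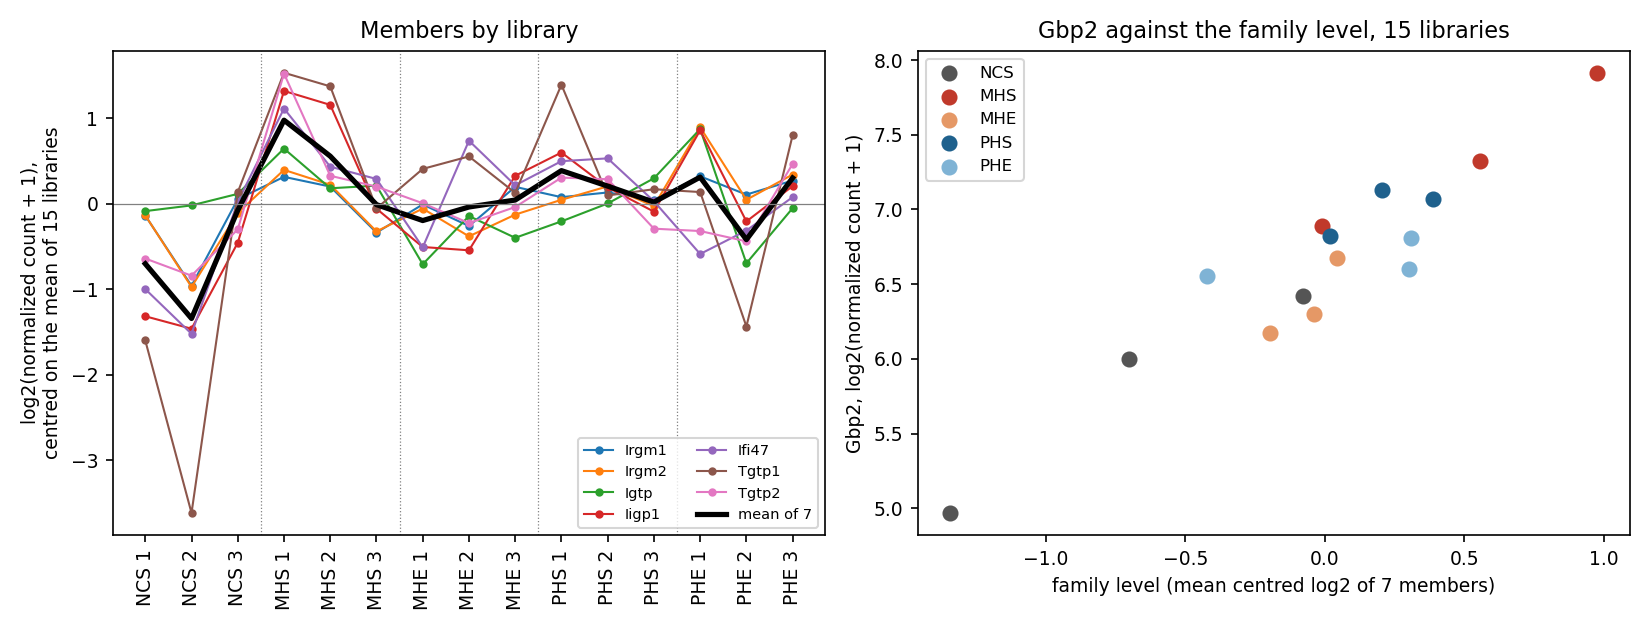
Left, log2(normalized count + 1) of each member centred on its mean, by library, with the mean of the 7 in black; lines join libraries only to guide the eye. Right, log2 level of Gbp2 against that family mean for the 15 libraries. Control 2 is lowest and maternal sedentary 1 highest in both, and Gbp2 is higher where the family level is higher (Pearson r 0.94).

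The guanylate-binding proteins are set beside the IRGs as a list. All 8 tested of 11 listed had a higher mean in the MHS, MHE, PHS and PHE groups than in controls, with median log2 differences of 1.12, 0.44, 0.77 and 0.69. The medians of the 7 IRG members in the same comparisons were 1.28, 0.51, 0.69 and 0.58. With exercise, 6 of 8 had a lower mean in the maternal arm and 6 of 8 in the paternal arm, with medians of -0.91 and -0.22, against -0.59 and 0.01 for the IRG members. The normalized count of Gbp2 was 59.3 ± 27.3 in controls, 172 ± 62.4 in the maternal sedentary and 83.5 ± 15.9 in the maternal exercised libraries, and that of Gbp4 was 105 ± 21.01, 401 ± 207 and 185 ± 40.9 (SD, n = 3 each).

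Genes listed for the interferon-gamma pathway, not all of them upstream of the family, had values on both sides of 0. Of 16 tested genes of 21 listed, 11 had a higher mean in the maternal sedentary group than in controls, with a median log2 difference of 0.17. Ifng, the ligand, had 0 reads in all 15 libraries. Ifngr1 and Ifngr2, the receptor chains, differed by 0.18 ± 0.15 and -0.21 ± 0.14, and the kinases Jak1 and Jak2 by -0.04 ± 0.12 and -0.07 ± 0.20. Of the 16, 3 were higher and 1 lower without overlap, against 599 and 483 of all 13499 genes tested. The 3 were Cd274 (1.87 ± 0.34), the inducible factor Irf1 (0.83 ± 0.21) and Nlrc5, the activator of MHC class I genes (1.53 ± 0.26). Socs1, the feedback inhibitor, was below the filter, with a mean of 7.61 ± 5.77 in controls and 6.03 ± 0.57 in the maternal sedentary group. None of these genes passed over all genes (limma).

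Many genes of the type I interferon pathway carry an ISRE too. Of 17 tested genes of 21 listed, 14 had a higher mean in the maternal sedentary group than in controls, with a median of 0.44. In the paternal sedentary and exercised groups 11 and 10 of 17 were higher than in controls, with medians of 0.12 and 0.05. In the maternal sedentary group Stat2 and Irf9, of the type I transcription complex, differed from controls by 0.55 ± 0.26 and 0.65 ± 0.19. The effectors Isg15 and Ifit1 differed by 0.16 ± 0.43 and 0.79 ± 0.46, and the regulator Irf7 by 0.52 ± 0.28. Of the 17, 4 were higher without overlap, against 4.44% of all genes tested. They were Irf7, Irf9, the antiviral gene Rsad2 (0.96 ± 0.26) and the receptor chain Ifnar2 (0.80 ± 0.18). Rsad2 and Ifnar2 are named after their values were seen. The 16 conjugation and ubiquitin genes that help place IRG proteins on vacuoles had a median of 0.03 in that comparison, and Atg5 differed by -0.02 ± 0.14.

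Genes outside the family that flank the members on the chromosome lay on both sides of 0. The 12 neighbours were the 2 nearest tested genes outside the family on each side of the 3 places. Other IRG genes or loci, some of them close to Iigp1, were passed over. Slc12a2 and Isoc1 lay 2429206 and 1695659 bases before Iigp1, and the rest lay within 106318 bases of their place. Of the 12, 6 had a higher and 6 a lower mean in the maternal sedentary group than in controls. The values ran from -1.04 (Gm16170) to 0.38 (BC023105). In the paternal sedentary and exercised groups 8 of 12 were higher than controls, with medians of 0.11 and 0.17.

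Markers of immune cells were scarce in these libraries. The 15 T and NK cell genes had 9 to 31 reads in all per library: 24 to 28 in the controls, 16 to 31 and 9 to 16 in the maternal sedentary and exercised groups, and 11 to 24 and 14 to 21 in the paternal ones. Of the 15, 13 had at most 5 reads in every library and 0 were above the filter. The 8 dendritic and B cell genes had 19 to 45 reads in all per library. The summed level of the 12 macrophage genes was 23.7 to 26.6 CPM in controls, 22.1 to 56.6 in the maternal sedentary and 18.2 to 54.7 in the maternal exercised libraries. It was 21.8 to 36.0 in the paternal sedentary and 17.0 to 22.5 in the paternal exercised libraries. Of the 8 macrophage genes above the filter, 7 had a higher mean in the maternal sedentary group than in controls (median 0.46), against 53% of all genes. In the maternal exercised group 7 had a lower mean than in the sedentary one (median -0.65), against 49.6% of all genes. In the MHE, PHS and PHE groups 4, 5 and 0 of the 8 were higher than in controls, with medians of -0.06, 0.12 and -0.31. The counts over all 13499 genes tested were 7087, 6882 and 6738. Between the paternal groups all 8 were lower in the exercised one (median -0.43), against 6509 of all genes. The part of the macrophage genes in the IRG values was not tested. Without maternal sedentary 2, the library with the highest macrophage level, the difference of Iigp1 between the maternal sedentary group and controls was 1.71.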

How the data were processed

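The 15 libraries were made from quadriceps total RNA with a stranded kit after removal of ribosomal RNA and sequenced as 100-base single-end reads, per the labels' protocols. Build mm10 and the tools DESeq2 1.11.8, featureCounts 1.5.2 and STAR 2.5.2b are named, per the submitters' processing notes. The values the authors deposited are a signal for each gene in each library: normalized counts, made by dividing reads by a size factor. This was deduced from the values: every value was a whole multiple of a step per library (100% within 0.001 of a read), and reads were recovered from these steps. No 2 libraries of a group agreed within sampling noise (chi-square 18.0 to 87.3 for each degree of freedom).

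The test was limma 3.58.1 (R 4.3.3, trend) on log2(normalized count + 1), with all 15 libraries in 1 fit and Benjamini-Hochberg adjustment over 13499 genes with a mean of at least 10, for 8 comparisons at a threshold of 0.05. Alternatives were other pseudocounts, filters and scalings, edgeR 4.0.16, DESeq2 1.42.0 and limma voom on recovered reads, fits of the compared groups only, Tgtp1 and Tgtp2 summed, and each library left out in turn. Fits without 4 libraries rich in hepatocyte transcripts, without 2 with few detected genes, and with the title number as a covariate were chosen after seeing the data. Tests were checked on simulated counts. Numbers of replicates follow accession order and pair nothing.

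Members and lists were chosen with earlier results of these data known. The named genes were the 7 members, tested IRG relatives, and 2 tested neighbours outside the family on each side of each cluster (members under 500000 bases apart). To these were added the 5 genes outside the family most correlated with the family level, and a set of named pathway genes, not all of which are reported here. Annotation was GENCODE M21 (99.4% of identifiers matched), and promoter windows were from RefSeq. Summed marker levels are recovered reads out of 1000000 of the library (CPM).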

Additional observations from a re-analysis of the deposited data

How the results depend on the processing

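The count of members past the threshold was 0 in every comparison under every alternative except DESeq2, which counted 1 (Iigp1) in the maternal sedentary group against controls. That comparison chose the family, so nothing is read from the count. In it the median of the members was 0.46 with a minimum mean of 50, which leaves 4 members, and 0.86 to 1.52 as each library was left out. The median between the maternal groups was -1.06 without the 4 libraries richest in hepatocyte transcripts. Without them the median of maternal against paternal sedentary was 0.83. With the title number as a covariate the median was 1.24 for paternal sedentary against controls, -0.60 for paternal exercised against sedentary and 0.12 for the difference between exercise effects. Leaving out each library gave -0.81 to -0.15 for the last, the value nearest 0 without maternal sedentary 1. The cause of these shifts was not tested.

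Members with values near 0 changed sign. For maternal exercised against controls, Irgm2 was -0.0666 without control 2, and the same without the 4 hepatocyte-rich libraries or the 2 with fewest genes. As each library was left out it ran from -0.0666 to 0.37. For paternal exercised against sedentary, the title covariate gave -0.60 for Iigp1, -0.0783 for Irgm2 and -0.59 for Igtp. Igtp there was -0.0105 with TMM scaling, -0.00448 with voom and -0.11 without the 4 libraries. Leaving out each library gave -0.23 to 0.30 for Iigp1 and -0.41 to 0.38 for Igtp. For paternal exercised against controls, Igtp ran from -0.38 to 0.41. For maternal against paternal sedentary, Irgm1 was 0.00293 with DESeq2, 0.23 without the 4 libraries and 0.17 without the 2. It ran from -0.15 to 0.17, and Irgm2 from -0.12 to 0.24, as each library was left out. For the difference between exercise effects, the title covariate gave 0.12 for Iigp1, 0.14 for Irgm1 and 0.0146 for Tgtp2. Ifi47 was -0.41 without the 4 libraries and ran from -0.13 to 0.49 with each library left out. Tgtp1 was -0.16 with edgeR, -0.17 with DESeq2, -0.87 without the 4 libraries and -0.37 without the 2. It ran from -0.50 to 0.62 with each library left out. In comparisons described without a test, Irgm1 between the maternal groups ran from -0.28 to 0.04 and Igtp between paternal sedentary and controls from -0.10 to 0.15.

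No paired analysis was possible because the labels give no replicate numbers. The first number of the title, which libraries of different groups share unevenly and whose meaning is not stated, was fitted as a covariate in its place for 5 comparisons. Where a group kept 1 library, it was assumed to vary like the others. With 3 libraries a group, the scarce members (Ifi47, Tgtp1 and Tgtp2) were limited by counting error as well as by the spread between animals, and the split between Tgtp1 and Tgtp2 by their shared sequence.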

Other observations

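Relatives of the family outside the 7 members had values on both sides of 0 in the maternal sedentary group against controls. Of 10 further IRG genes or loci listed, 5 were tested: Gm4841, F830016B08Rik, 9930111J21Rik1, 9930111J21Rik2 and Irgq. In the maternal sedentary group 3 of the 5 had a higher mean than in controls, with a median log2 difference of 0.26. In the MHE, PHS and PHE groups 3, 4 and 5 of the 5 were higher than in controls, with medians of 0.07, 0.15 and 0.21. Between the maternal groups 4 of the 5 were lower in the exercised one, with a median of -0.54. Irgq, a quasi-GTPase of the family, had a normalized count of 664 ± 40.6 in controls and 805 ± 154 in the maternal sedentary group (SD, n = 3). Its log2 difference was 0.26 ± 0.16.

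Gm4841 and F830016B08Rik lie close to Iigp1 on chromosome 18 and varied widely between single libraries. The normalized count of F830016B08Rik was 514, 172 and 30.6 in the paternal exercised libraries and 287, 75.9 and 56.1 in the paternal sedentary ones. In controls it was 262, 129 and 51.6. Gm4841 was at 413, 10.6 and 30.6 in the paternal exercised libraries. In the maternal sedentary libraries it was at 24.2, 29.9 and 20.5, below all controls (30.3 to 93.5) by a narrow margin. Of the 5 tested relatives 1 was lower without overlap in that comparison, against 483 of all 13499 genes tested, and nothing is read from this. Paternal exercised 1, the highest library for Irgm1, Irgm2 and Igtp, was the highest for both of these loci too.

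Gm12250, the locus of the effector Irgb10, was below the filter. It had 1 read over the 3 control libraries (exact 95% Poisson interval 0.0253 to 5.57, for counting error only), 29 over the maternal sedentary (19.4 to 41.7), 7 over the maternal exercised, 15 over the paternal sedentary and 12 over the paternal exercised libraries. It was looked at after the values of its list had been seen.

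Genes outside the family whose promoter windows hold the GAS letters within 5 bases of the ISRE core were also listed. Of 27 such genes 13 were tested. In the maternal sedentary group 9 of these had a higher mean than in controls, against 53% of all genes, with a median log2 difference of 0.14. The 4 members with both motifs differed by 2.64 (Tgtp1), 1.28 (Tgtp2), 0.50 (Irgm2) and 0.34 (Igtp) in that comparison. The median of all 7 members, with or without both motifs, was 1.28 there, and that of all genes was 0.01. Among the 13, Bst2 differed by 0.94 ± 0.16 and Ifitm3 by 0.35 ± 0.15, and Shisa5 and Myd88 by 0.02 ± 0.14 and 0.07 ± 0.15. In the paternal sedentary group 5 of the 13 had a higher mean than in controls, against 6882 of all 13499 genes tested, with a median of -0.01.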
